A study of Mus musculus with 44 samples.

Results

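Acetylation of lysine 27 on histone H3 (H3K27ac) was profiled by CUT&RUN in primary granulosa cells of Smad3PA/PA mice after 4 h with mouse GDF9 or vehicle, to ask whether GDF9 changed active chromatin. Both groups carried the PA tag on both alleles of Smad3, and each group had 2 libraries: GDF9 replicates 1 and 2, and vehicle replicates 1 and 2. These 4 peak lists, out of 44 samples in the series, were chosen by antibody, line and treatment, and only peaks on chromosomes 1 to 19 and X were kept. The cells came from female mice of 3 to 4 weeks that had received gonadotropin (PMSG) 46 h before the ovaries were collected, were cultured for 4 days before treatment and were pooled from 8 mice, with about 55000 cells in each reaction. The labels give no separate animals for the replicates, so the p-values below measure only the spread between these libraries. In the tests of regions and genes that spread is shared across those of like signal, so an SE is not that of a single region alone.

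Granulosa cells are the somatic cells that surround the oocyte and make estradiol and inhibins. GDF9 is secreted by the oocyte and binds receptor kinases on granulosa cells, and these phosphorylate SMAD2 and SMAD3, which enter the nucleus with SMAD4. H3K27ac is placed by the acetyltransferases EP300 and CREBBP, is removed by histone deacetylases, and marks active promoters and enhancers. In CUT&RUN an antibody bound to chromatin recruits a nuclease, and the DNA fragments it releases are sequenced.

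No shared H3K27ac region passed the test between GDF9 and vehicle, and the lists of opposite treatments were nearly as alike as those of the same treatment. The regions with the smallest p-values differed mainly in how long a stretch was called, which was shorter with GDF9 inside genes such as Glyr1, Rras2 and Rnf19a and longer inside genes such as Tnrc6b and Snx3. Promoters of granulosa cell genes such as Gata4, Inha and Inhba, and of the SMAD target genes Smad7, Skil and Spsb1, were strongly acetylated in all 4 libraries.

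The GDF9 lists held 27754 and 27587 peaks, against 29378 and 29240 peaks in the vehicle lists. Median peak width was 2940.5 and 2979 bp with GDF9, against 3019 and 3287.5 bp with vehicle, a mean difference of -193.5 bp that was -59.25 bp without vehicle replicate 2. Peaks covered 108 and 109 Mb with GDF9 and 119 and 130 Mb with vehicle. On all 3 measures both GDF9 lists lay below both vehicle lists. The exact two-sided permutation test gave p = 0.333 for each, which is the smallest value that 2 against 2 libraries allow, so none could pass.

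**Figure D1:**
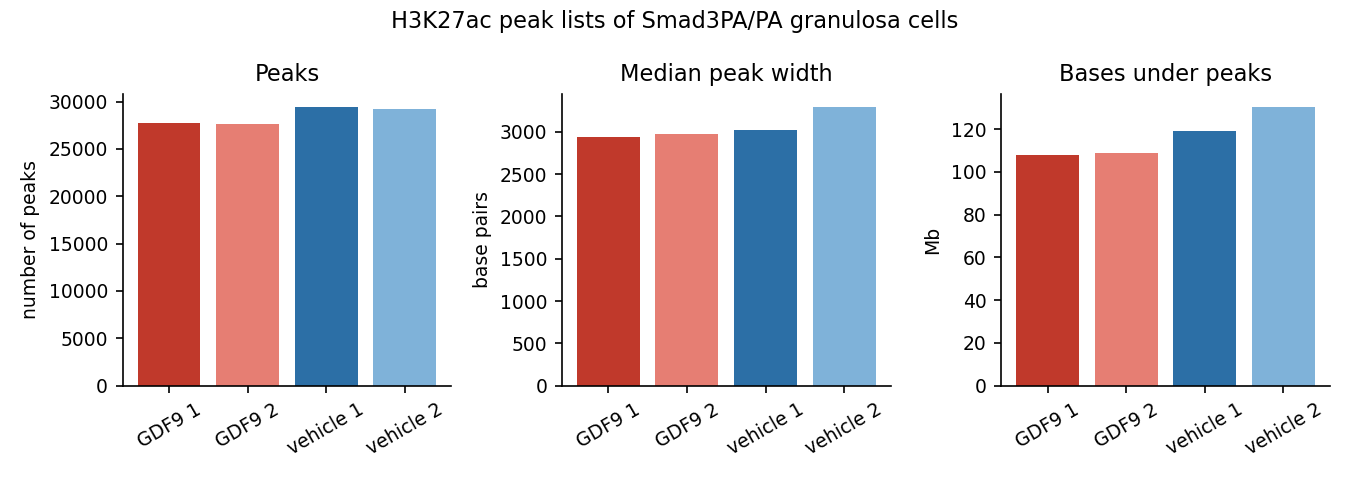
Number of peaks, median peak width (bp) and bases under peaks (Mb) in each H3K27ac list, with GDF9 replicates in red and vehicle replicates in blue, 1 bar per library. Both GDF9 bars are below both vehicle bars in each panel, and vehicle replicate 2 has the widest peaks at 3287.5 bp.

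Each list gives a total signal (coverage summed over the peak) and a maximum for each peak, scaled to the E. coli spike-in. Between 99.9964% and 100% of the maxima in a list were, within 0.05 of a step, whole multiples of a step that stands for 1 fragment, and this step was 1.13 and 1.79 in the GDF9 lists and 1.21 and 1.45 in the vehicle lists. The median peak had a maximum of 12 and 12 fragments with GDF9 and 12 and 13 with vehicle. A single count of 12 fragments has a 95% Poisson interval of 6.20 to 21.0. A maximum is the largest of many positions, so this is only a rough guide to how coarsely the height of a peak was measured. The spike-in step differed more between replicates of a treatment than between treatments, and it set the level of a whole library. Library medians of log2 total signal over the shared regions were 14.42 and 15.07 with GDF9, against 14.59 and 15.08 with vehicle. The difference of -0.09 was smaller than the SD of 0.46 between the GDF9 replicates and 0.34 between the vehicle replicates (exact two-sided permutation p = 0.667). Divided by the step of its list, a total counts fragments summed over bases. On that log2 scale these medians were 14.24 and 14.22 with GDF9 and 14.32 and 14.55 with vehicle, a difference of -0.20.

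Joining peaks that overlapped by at least 1 bp gave 36132 regions, and 16404 of them (45.4%) held a peak in all 4 lists. These shared regions had a median width of 5411 bp and took 88.2% and 88.2% of the signal under GDF9 peaks, against 85.4% and 84.5% of that under vehicle peaks. Peaks inside them reached a median of 13 and 13 fragments with GDF9 and 14 and 15 with vehicle, whereas peaks outside reached 9 and 9 with GDF9 and 9 and 10 with vehicle. A region missing from a list was therefore mostly a low one. The Jaccard index of covered bases was 0.543 between the GDF9 lists and 0.541 between the vehicle lists, and it lay between 0.533 and 0.535 for the 4 pairs of opposite treatment.

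Regions in only 2 lists numbered 5152. Both GDF9 lists alone held 610 of them and both vehicle lists alone held 1261, while the remaining 3281 joined a GDF9 list with a vehicle list, at 754 to 884 for each of the 4 combinations. Start sites of genes lay within 3 kb of 26.1% of the regions found only with GDF9 and of 16.8% of those found only with vehicle, against 19.6% of the mixed ones. Among the genes of the lists described below, Bambi and Fzd1 had a start-site peak in both GDF9 lists and in neither vehicle list. BAMBI is a decoy receptor of the TGFβ family and FZD1 is a WNT receptor. Fn1, which encodes fibronectin, had a start-site peak in both vehicle lists and in neither GDF9 list. A peak that is called in a list and not in another does not show that the level differed.

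Total signal of the 16404 shared regions was tested with limma on the log2 scale. No region passed an adjusted p of 0.05 (0.0% called), and the smallest adjusted p was 0.31. At an unadjusted p under 0.05 there were 9 regions higher and 115 lower with GDF9. The median log2 difference was -0.07, and 87.3% of the regions lay within 0.5 in either direction. The step between libraries entered this test as error: the median SE of a log2 difference was 0.57 on the deposited scale and 0.28 once each library was centred on its own median. Centring also called 0 regions, with 373 higher (2.27%) and 537 lower (3.27%) at an unadjusted p under 0.05 and a smallest adjusted p of 0.27. Leaving out GDF9 replicate 1 or GDF9 replicate 2 from the centred test called 14 and 9 regions, all lower, of which 1 was called in both cases. In 19.7% of the shared regions both centred GDF9 values lay above both vehicle values, and in 15.9% they lay below.

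Maximum signal gave 0 calls (0.0%) with a median log2 difference of 0.005, and 1 region was higher and 1 lower at an unadjusted p under 0.05. Centred maxima gave 0 calls, with 331 regions higher and 383 lower and a median of -0.007. Covered width gave 0 calls (0.0%) with a median log2 difference of -0.09, and 161 regions were wider and 823 narrower with GDF9 at an unadjusted p under 0.05. With each library centred on its median width these counts were 351 and 501, the median was 0.03 and 1 narrower region was called. The SD of the centred log2 differences in total signal between single libraries was 0.46 within GDF9 and 0.44 within vehicle, and 0.46 for each pair of opposite treatment. Between 2 libraries a region thus varied as much within a treatment as across treatments.

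**Figure D2:**
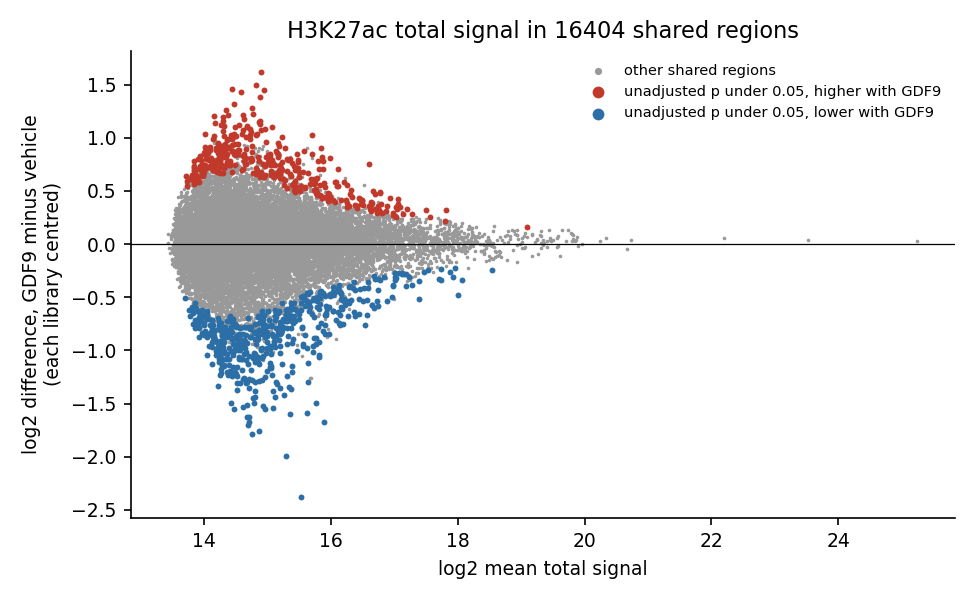
Each point is 1 of the 16404 shared regions, with the log2 of its mean total signal on the x axis and the log2 difference of GDF9 minus vehicle on the y axis, after centring each library on its median. Red and blue points have an unadjusted p under 0.05 in the higher (373) and lower (537) direction, none passes the adjusted threshold, and the log2 differences run between -2.37 and 1.62.

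The regions with the smallest p-values were ranked on the deposited scale among those in which the groups did not overlap. The lowest p belonged to a region of chr16:5020086-5044742 (mm10) inside Glyr1, whose product is a chromatin-binding reader protein. Its total signal was 10109 and 15601 with GDF9, against 38887 and 124297 with vehicle. The log2 difference was -2.47 (SE 0.58, unadjusted p = 1.89e-05, adjusted p = 0.31, limma). Peaks covered 2016 and 2617 bp with GDF9 and 9460 and 24265 bp with vehicle, while the maxima were 9 and 9 fragments with GDF9 and 11 and 12 fragments with vehicle. The region was therefore called over a shorter stretch with GDF9, while the height differed by 2 or 3 fragments.

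The region of chr7:114046832-114057712 inside Rras2, which encodes a RAS-family GTPase, had a total signal of 16127 and 14526 with GDF9, against 62845 and 66981 with vehicle (log2 difference -2.08, SE 0.57). Its covered width was 2438 and 1781 bp with GDF9 and 10881 and 8452 bp with vehicle. The maxima there were 11 and 9 fragments with GDF9, against 13 and 15 with vehicle. The region of chr15:36227979-36249165 lies over Rnf19a, which encodes a ubiquitin ligase, and Spag1. Its total signal was 23814 and 30843 with GDF9, against 77596 and 109827 with vehicle (log2 difference -1.77, SE 0.54). Its maxima were 9 and 9 fragments with GDF9, against 12 and 12 with vehicle. Of all shared regions it had the smallest adjusted p once libraries were centred, at 0.27 for a log2 difference of -1.67. That both vehicle values lay above both GDF9 values in all 3 regions follows from the rule by which they were chosen. At Glyr1 the vehicle replicates themselves differed widely, and none of the 3 regions passed the adjusted threshold.

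Further lower regions lay inside Ralgapb, Lars, Gm30275 and Fam110a, and at the start sites of Smyd5 and of Mdh2 and Styxl1. MDH2 is the malate dehydrogenase of mitochondria, and LARS charges leucine onto its transfer RNA. Their log2 differences were between -1.88 and -1.68, and their maxima stayed between 6 and 21 fragments in every library. At Smyd5 the maxima were 10 and 9 fragments with GDF9, against 21 and 13 with vehicle. At Mdh2 and Styxl1 they were 8 and 9 with GDF9, against 10 and 14 with vehicle. Maxima of the treatments met at Ralgapb and Gm30275 and overlapped at Lars and Fam110a.

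In the opposite direction the smallest p belonged to a region of chr14:99067687-99079170 over Bora and Dis3, an activator of Aurora A kinase and a subunit of the RNA exosome. Its total signal was 25154 and 67731 with GDF9, against 12320 and 16702 with vehicle (log2 difference 1.52, SE 0.59, unadjusted p = 0.0092). Peaks covered 5821 and 10956 bp with GDF9 and 1832 and 2423 bp with vehicle, with maxima of 11 and 15 fragments with GDF9 and 12 and 11 with vehicle. The maxima of the 2 treatments overlapped, although the totals, by the rule of choice, did not. The other higher regions lay inside Tnrc6b, Snx3, Adgrl2, Slc9a7, Trappc8 and over Poldip2 and Tnfaip1, and at the start sites of Rpl28 and Tmem238, of Arl5b and Nsun6, and of Hemk1. Their log2 differences were between 1.11 and 1.40. Heights differed more at a few regions, both inside genes and at promoters. Inside Adgrl2 the maxima were 16 and 16 fragments with GDF9, against 9 and 10 with vehicle. At the promoter region of Arl5b and Nsun6 they were 19 and 21 with GDF9, against 12 and 15 with vehicle.

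**Figure D3:**
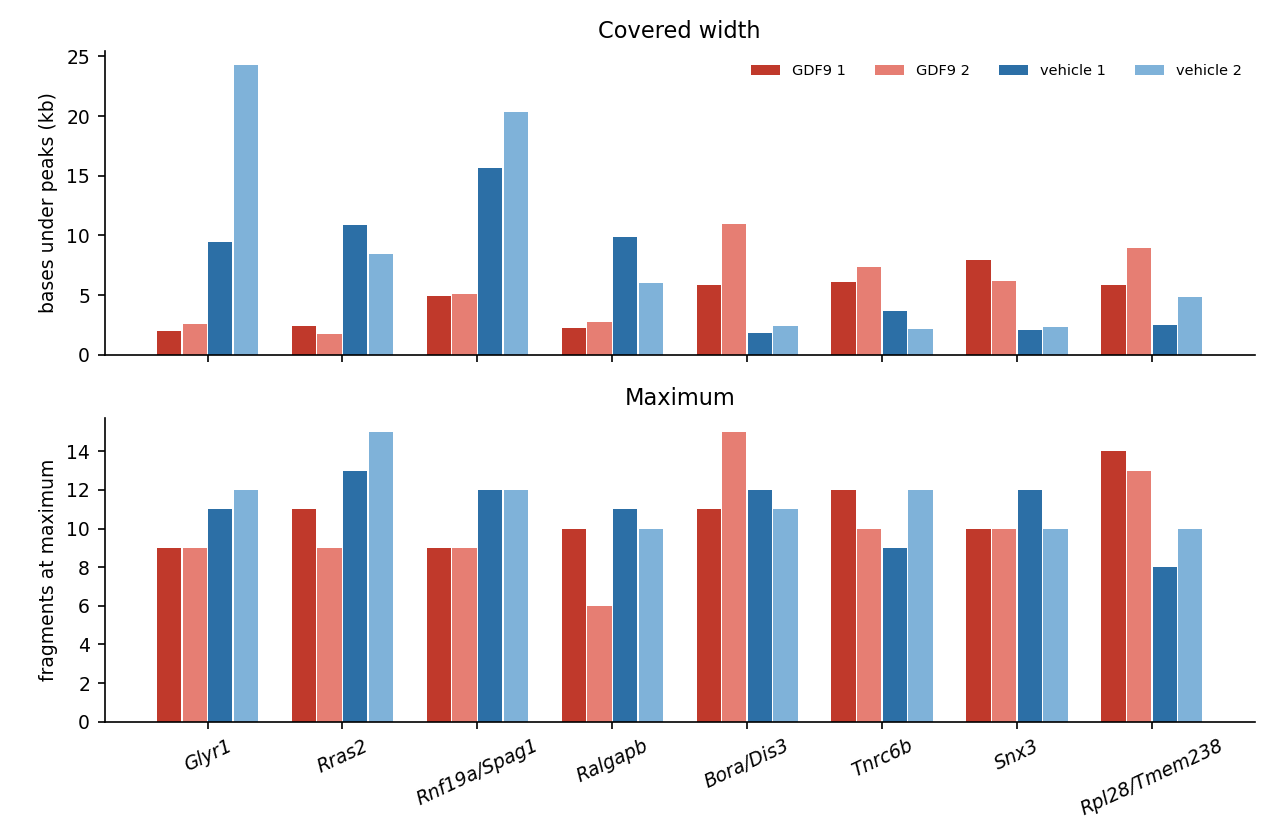
Covered width (kb, upper panel) and maximum (fragments, lower panel) of the 4 lower and 4 higher regions with the smallest p-values, named by the genes they overlap, with GDF9 replicates in red left of vehicle replicates in blue. Widths differ by treatment, for instance 2016 and 2617 bp with GDF9 against 9460 and 24265 bp with vehicle at Glyr1. The maxima lie between 6 and 15 fragments, lower with GDF9 at Glyr1, Rras2 and Rnf19a and higher at Rpl28.

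A like split was seen over all regions with an unadjusted p under 0.05 after centring, which were 3.27% (lower) and 2.27% (higher) of those tested. They were picked on total signal, which is covered width times mean signal, so the split describes these regions and is no further test. The 537 lower ones had a median log2 difference of -0.80 in total signal and -0.81 in covered width, but 0.03 in mean signal per covered base and -0.16 in maximum. The 373 higher ones had 0.73 in total signal and 0.72 in covered width, but -0.01 in mean signal and 0.17 in maximum. Gene bodies held 63.1% of the lower regions and 37.5% of the higher ones, against 39.4% of all shared regions. Covered width depends on where the peak caller ended a peak, and the part of that in these differences was not tested.

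By position, 8112 shared regions lay within 3 kb of a start site of a protein-coding or long noncoding gene (promoters), 6468 in gene bodies and 1824 between genes. The median centred log2 difference was 0.06 at promoters, -0.03 in gene bodies and 0.01 between genes, beside 0.02 over all shared regions. In gene bodies 2.16% of the regions were higher and 5.24% lower at an unadjusted p under 0.05, while at promoters the shares were 2.48% and 2.12%. The library medians of centred log2 total at promoters were 0.25 and 0.22 with GDF9, against 0.20 and 0.17 with vehicle. Those in gene bodies were -0.18 and -0.13 with GDF9, against -0.12 and -0.08 with vehicle. Both GDF9 medians thus lay above both vehicle medians at promoters and below both in gene bodies, and the mean SD between replicates of these medians was 0.021 at promoters and 0.031 in gene bodies. With 2 against 2 libraries no exact test of this could go below 0.333. The 4101 widest regions, with a median of 12434 bp, had 3.24% higher and 6.68% lower, and the 4101 narrowest, with a median of 3220 bp, had 1.19% higher and 0.73% lower.

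The 3 regions with the highest total signal were chr2:98666120-98667343 at the predicted gene Gm10800, chr9:2999990-3038565 over a cluster of predicted genes, and chr14:19415618-19419715 at Gm21738. They held 5.95% and 6.47% of all signal under peaks with GDF9 and 5.81% and 5.96% with vehicle. The maximum at Gm10800 was 65452 and 70232 fragments with GDF9, against 69344 and 83252 with vehicle. The same 3 regions held 61.4% to 77.5% of the signal in the SMAD2, PA and SMAD4 lists of this line, so this signal was not particular to the H3K27ac antibody. Next by total signal came the region of chr3:27538263-27713592 at Fndc3b, which was also the widest at 175330 bp. Its covered width was 154721 and 165359 bp with GDF9 and 163232 and 164640 bp with vehicle, and its centred log2 difference was 0.04 (SE 0.06). Other very wide regions lay at Crim1, Kansl1 and Fez2, with centred log2 differences between 0.00 and 0.14. None of these had an unadjusted p under 0.05.

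Genes of defined roles were followed through the region at their start site. Of 19 genes in the list of granulosa cell identity, 15 had a shared region, and no region was called. Beside the planned granulosa cell markers this list holds Nr2f2, Ihh and Grem1, of which only Nr2f2 had a shared region. The centred log2 difference had a median of 0.08, and 0 of the 15 had an unadjusted p under 0.05 in either direction. Gata4, a transcription factor of gonadal somatic cells, had a region of chr14:63224967-63252297 with a total signal of 328141 and 475776 with GDF9, against 322703 and 434613 with vehicle (centred log2 difference 0.17, SE 0.08, unadjusted p = 0.06). Inhba, which encodes a subunit of activin and inhibin, had 221014 and 362903 with GDF9, against 241889 and 337831 with vehicle (0.08, SE 0.08). Foxl2, which maintains granulosa cell fate, had 103481 and 133948 with GDF9, against 112125 and 151539 with vehicle (-0.05, SE 0.13). On the deposited scale the treatments overlapped at all 3 genes. After centring, both GDF9 values lay above both vehicle values at Gata4 and Inhba, and the treatments overlapped at Foxl2. Of the 15 regions 4 lay above in this way and 1 below, beside 7 and 0 of 18 housekeeping regions. At all promoter regions the shares were 23.4% above and 12.6% below. Cyp19a1, the aromatase gene, and Ihh had no start-site peak in any list, and Fshr, the receptor of follicle-stimulating hormone, had a peak only in vehicle replicate 1.

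Markers of other ovarian cells were mostly without H3K27ac at their start sites. None of 9 endothelial and none of 8 surface epithelium markers had a peak in any list. A shared region was present at 1 of 8 theca markers (Ptch1), 1 of 9 stromal markers (Ogn), 2 of 8 smooth muscle markers (Acta2 and Tagln), 1 of 9 leukocyte markers (Cd68) and 1 of 10 oocyte markers (Gdf9). The region at Cd68 also spans the start sites of Eif4a1 and Mpdu1, and that at Gdf9 the start site of Uqcrq. Cyp17a1, Pdgfra, Ptprc and Zp2 had no peak in any list.

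**Figure D4:**
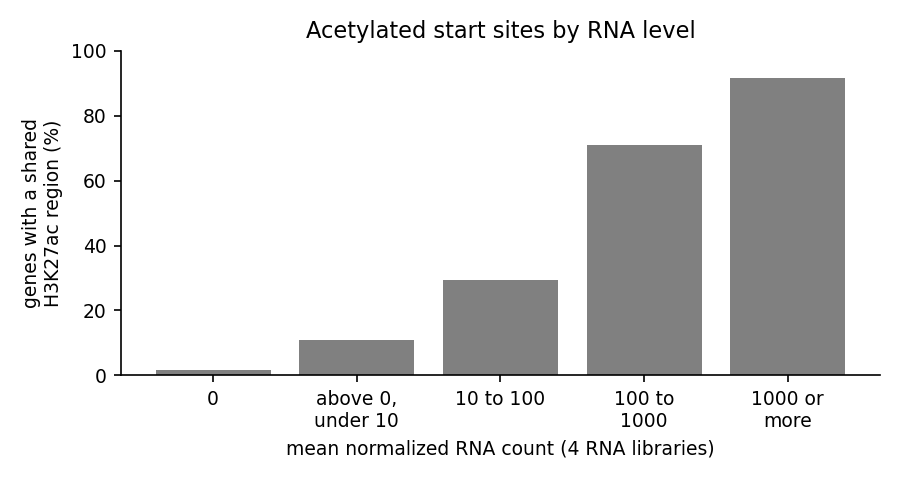
Share of genes (%) with a shared H3K27ac region within 3 kb of a start site, by the mean normalized RNA count over the 4 RNA libraries. The share was 1.64% at a mean of 0 and 91.7% at a mean of 1000 or more.

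The SMAD2 and SMAD3 feedback and immediate target genes had a shared region at 18 of 22 start sites. None was called, the median centred log2 difference was 0.09, and 1 was higher and 0 lower at an unadjusted p under 0.05. The one was Tgif1, which encodes a repressor that binds SMAD2 and SMAD3. Its total signal was 112046 and 163003 with GDF9, against 96251 and 143372 with vehicle (centred log2 difference 0.30, SE 0.12, unadjusted p = 0.035, adjusted p = 0.86). The inhibitory SMAD gene Smad7 had a region of 31037 bp with 256195 and 362957 with GDF9, against 252802 and 359952 with vehicle (centred 0.11, SE 0.09). Skil, which encodes the SMAD corepressor SnoN, had 243981 and 374176 with GDF9, against 249302 and 381514 with vehicle (0.06, SE 0.09). Spsb1, an adaptor of a ubiquitin ligase that acts on the TGFβ receptor, had the widest region of the list, at 73931 bp, and a centred difference of 0.03 (SE 0.07). The deposited totals of Smad7 and Skil overlapped between treatments, as did those of Spsb1. After centring, both GDF9 values lay above both vehicle values at Smad7 and the treatments overlapped at Skil and Spsb1. Of the 18 regions of the list 5 lay above in this way and 1 below, beside 23.4% and 12.6% of all promoter regions.

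Among the GDF9 receptors and SMADs 8 of 14 genes had a shared region, with a median centred log2 difference of -0.05. Bmpr2, the type II receptor of GDF9, had a total signal of 91202 and 160696 with GDF9, against 64831 and 132245 with vehicle (centred 0.48, SE 0.18, unadjusted p = 0.028, adjusted p = 0.85). Tgfbr1, its type I receptor, had 56744 and 79980 with GDF9, against 70438 and 102136 with vehicle (-0.24, SE 0.15). The centred values of GDF9 lay above those of vehicle at Bmpr2 and below them at Tgfbr1, and neither passed the test. Of the 8 regions 2 lay above in this way and 2 below, beside 23.4% and 12.6% of all promoter regions.

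**Figure D5:**
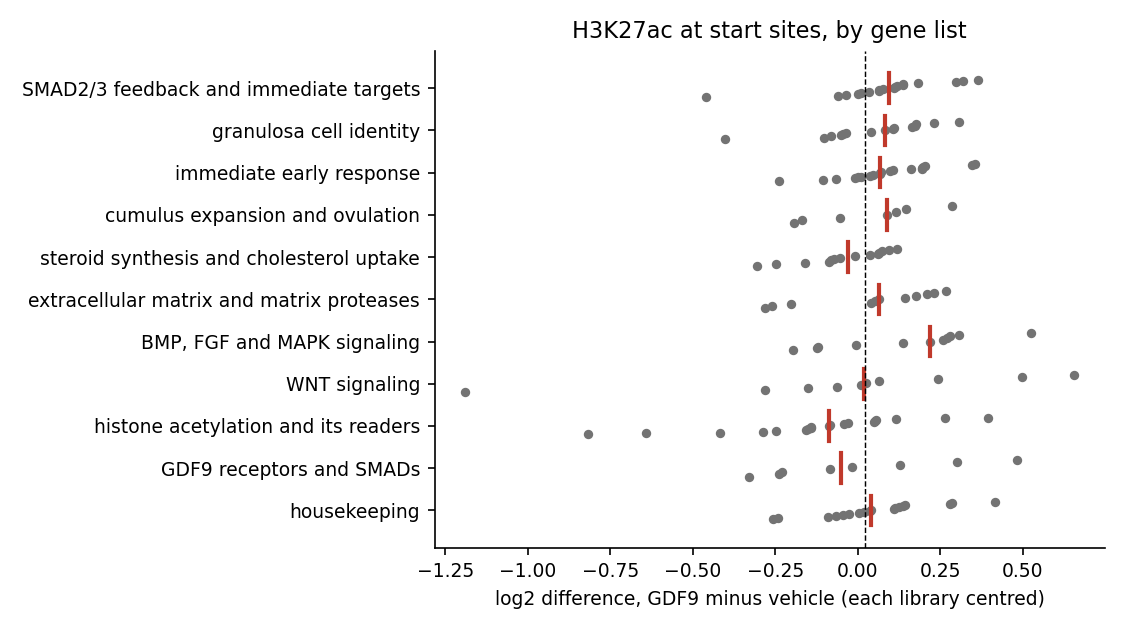
Centred log2 difference in H3K27ac total signal, GDF9 minus vehicle, at the start sites of each gene list, with 1 grey point per shared region, the list median as a red line and the median of all shared regions (0.02) as a dashed line. Markers of other cell types are not drawn. The medians of the lists drawn lie between -0.09 and 0.22, and the lowest single region, at Dvl1, is at -1.19.

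Cumulus expansion and ovulation genes had a shared region at 7 of 21 start sites. Has2, Ptx3 and Tnfaip6, which build the hyaluronan matrix of the cumulus, had no start-site peak in any list. Ptgs2, which encodes the prostaglandin synthase COX2, had 24216 and 40093 with GDF9, against 32659 and 44389 with vehicle (centred -0.19, SE 0.24). Of 18 steroid synthesis genes 14 had a shared region, with a median of -0.03. Star, the cholesterol carrier of mitochondria, had a centred difference of -0.09 (SE 0.10) and Cyp11a1, the side-chain cleavage enzyme, -0.25 (SE 0.15). Extracellular matrix genes had a shared region at 12 of 24 start sites with a median of 0.06, BMP, FGF and MAPK genes at 11 of 21 with 0.22, and housekeeping genes at 18 of 18 with 0.04. None of these lists held a region with an unadjusted p under 0.05.

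WNT signaling genes had a shared region at 10 of 20 start sites, with a median of 0.02, 1 higher and 1 lower at an unadjusted p under 0.05. The lower one was Dvl1, which encodes a scaffold downstream of WNT receptors. Its total signal was 11953 and 28335 with GDF9, against 39210 and 51269 with vehicle (centred -1.19, SE 0.31, unadjusted p = 0.0037, adjusted p = 0.75). Peaks covered 1912 and 4242 bp with GDF9 and 7324 and 6333 bp with vehicle. The higher one was Lrp6, a WNT coreceptor, with a centred difference of 0.50 (SE 0.20). Of 21 genes of histone acetylation and its readers 19 had a shared region, with a median of -0.09. Ep300 had a centred difference of 0.05 and Crebbp of -0.04. The deacetylase gene Hdac1 had a total signal of 8903 and 14072 with GDF9, against 16512 and 26890 with vehicle (centred -0.82, SE 0.26, unadjusted p = 0.012, adjusted p = 0.84), with maxima of 8 and 9 fragments with GDF9 and 9 and 11 with vehicle. The highest centred difference among all listed genes was that of Acta2, smooth muscle actin, which cultured granulosa cells also express. Its total signal was 16761 and 27074 with GDF9, against 10245 and 14609 with vehicle (0.89, SE 0.26, unadjusted p = 0.0081, adjusted p = 0.80).

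RNA of granulosa cells under the same treatments gave an independent readout, in 2 libraries per treatment. Their labels state no genotype, and the study describes the cells as from Smad3PA/PA mice. Of 12597 genes tested with limma, 307 were higher (2.44%) and 89 lower (0.707%) with GDF9, 396 in all. Without vehicle replicate 1 there were 194 higher and 21 lower, and without GDF9 replicate 2 there were 365 higher and 218 lower. A shared H3K27ac region lay at the start site of 76.0% of 275 higher genes and 69.3% of 88 lower genes that could be placed, and of 65.4% of 11829 genes not called. At these start sites the median centred log2 difference in H3K27ac was 0.04 for higher genes, 0.12 for lower genes and 0.06 for genes not called. For the higher genes 4 of 206 regions were higher (1.94%) and 6 lower (2.91%) at an unadjusted p under 0.05. For the lower genes 2 of 61 were higher (3.28%) and 0 lower. The shares were 2.58% and 1.89% for genes not called, and 2.27% and 3.27% over all shared regions. Across the 8012 genes with both measures the correlation of the 2 differences was -0.03 (Pearson) and -0.03 (Spearman), with genes that are not independent of each other. The presence of a shared H3K27ac region at the start site followed the RNA level. It was found for 1.64% of genes with no RNA and for 91.7% of genes with a mean of 1000 or more. Presence of a region depends on the peak threshold and is not a level of H3K27ac.

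Rgs2 encodes an inhibitor of signaling by heterotrimeric G proteins. It had 194 and 199 normalized RNA counts with GDF9, against 93.0 and 103 with vehicle (log2 difference 1.00, adjusted p = 3.2e-06). Its H3K27ac total was 52669 and 74084 with GDF9, against 51383 and 70825 with vehicle (centred 0.14, SE 0.17). Fosb, an AP-1 subunit, had 229 and 204 RNA counts with GDF9, against 108 and 95.7 with vehicle (1.08), and an H3K27ac total of 23776 and 35466 with GDF9, against 27299 and 28178 with vehicle (0.16, SE 0.29). The RNA of both genes rose with GDF9, while their deposited H3K27ac totals overlapped between treatments. After centring, Rgs2 had log2 totals of 1.26 and 1.11 with GDF9, against 1.05 and 1.03 with vehicle, which do not overlap, and Fosb overlapped. Both GDF9 values lay above both vehicle values in 23.4% of all promoter regions as well. Of the 24 immediate early genes 20 had a shared region, with a median of 0.07 and 0 with an unadjusted p under 0.05. Their members Fos, Egr1 and Nr4a1 had RNA log2 differences of 0.91, 0.73 and 0.84 and centred H3K27ac differences of 0.01, -0.10 and 0.04. Lama1, a laminin subunit of the basement membrane, was higher in RNA by 0.42 and had a centred H3K27ac difference of 0.05 (SE 0.09) over a region of 34213 bp.

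Promoter sequence is shown for Rgs2 and Fosb, with higher RNA and no H3K27ac difference past the test, and for Dvl1 and Acta2, the listed genes with the lowest and highest centred difference. Each is the 250 bases before the RefSeq start site (GRCm38.p6, the same assembly as mm10), 5′ to 3′ on the strand of the gene. Capitals mark the SMAD core CAGAC, or GTCTG on the other strand, and the core of the cyclic AMP response element TGACG, or CGTCA on the other strand.
Rgs2 (chr1:144004150-144004399, minus strand): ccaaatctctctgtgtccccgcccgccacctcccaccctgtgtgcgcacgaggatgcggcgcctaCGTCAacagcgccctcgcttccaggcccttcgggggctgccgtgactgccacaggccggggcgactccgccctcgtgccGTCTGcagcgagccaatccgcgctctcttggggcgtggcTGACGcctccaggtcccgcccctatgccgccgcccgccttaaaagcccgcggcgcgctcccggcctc
Fosb (chr7:19310046-19310295, minus strand): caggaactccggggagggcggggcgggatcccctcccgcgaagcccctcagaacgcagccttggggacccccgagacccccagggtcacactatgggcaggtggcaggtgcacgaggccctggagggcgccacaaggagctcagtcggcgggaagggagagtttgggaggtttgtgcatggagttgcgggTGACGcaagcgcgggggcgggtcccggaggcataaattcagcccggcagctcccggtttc
Dvl1 (chr4:155847152-155847401, plus strand): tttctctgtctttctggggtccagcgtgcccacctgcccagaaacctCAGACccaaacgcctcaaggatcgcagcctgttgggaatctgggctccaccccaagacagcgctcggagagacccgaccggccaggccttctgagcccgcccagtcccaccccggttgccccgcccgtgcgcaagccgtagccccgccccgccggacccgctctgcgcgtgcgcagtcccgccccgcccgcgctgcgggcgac
Acta2 (chr19:34255374-34255623, minus strand): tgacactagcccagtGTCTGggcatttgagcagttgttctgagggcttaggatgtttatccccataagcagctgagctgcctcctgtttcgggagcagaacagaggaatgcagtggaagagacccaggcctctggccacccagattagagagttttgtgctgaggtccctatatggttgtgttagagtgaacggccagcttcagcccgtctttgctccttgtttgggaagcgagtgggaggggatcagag

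All 4 start sites lay in a shared region. Rgs2 held 1 SMAD core and 2 response element cores, Fosb 0 and 1, Dvl1 1 and 0, and Acta2 1 and 0. Of 32619 RefSeq promoter windows of this length 42.1% held the SMAD core, and of the 9513 whose start site lay in a shared region 39.9% did. The response element core was in 17.9% of all windows and in 29.9% of those in a shared region. A match of 5 letters is a description of the window and not a binding site.

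SMAD peaks of the same line and treatment were set beside H3K27ac, using places with a peak in both replicates. Of the shared H3K27ac regions 1477 (9.0%) met a SMAD2 region of GDF9-treated cells, against 146 (0.890%) that met a SMAD2 region of vehicle-treated cells. These SMAD2 lists held 8981 regions with GDF9 and 1726 with vehicle, of which 1615 with GDF9 and 157 with vehicle (9.10%) lay in a shared H3K27ac region. SMAD4 regions met 2670 (16.3%) with GDF9 and 2496 (15.2%) with vehicle, and PA regions, which mark tagged SMAD3, met 131 (0.799%) with GDF9 and 111 (0.677%) with vehicle. Of the SMAD4 regions themselves 31.9% of 9173 with GDF9 and 24.3% of 11606 with vehicle lay in a shared H3K27ac region. Of the PA regions 143 of 9647 with GDF9 and 122 of 4301 with vehicle (2.84%) did, so the order of the treatments for PA depends on which list the share is taken of. The centred log2 difference in H3K27ac had a median of 0.06 where a SMAD2 region of GDF9-treated cells lay, 0.04 at SMAD4 regions and -0.04 at PA regions, beside 0.01 in the 12828 regions with none of the 3. At the SMAD2 regions 2.51% were higher and 1.15% lower at an unadjusted p under 0.05, beside 2.27% and 3.27% of all shared regions. Both centred GDF9 values lay above both vehicle values in 25.7% of the SMAD2 regions and below them in 11.3%. Over all shared regions these shares were 19.7% and 15.9%, and at promoters 23.4% and 12.6%. The H3K27ac regions with SMAD2 were wider than the rest, with a median of 6601 bp against 5337 bp, and none was called. The library medians there were 0.68 and 0.65 with GDF9, against 0.59 and 0.57 with vehicle.

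The closest data in the series are the 4 H3K27ac lists of granulosa cells with HA-tagged SMAD2 (Smad2HA/+). They held 13313 and 12098 peaks with GDF9 and 10413 and 9753 with vehicle, with median widths of 18566 and 21521 bp with GDF9 and 26746 and 29260 bp with vehicle, and the median maximum was between 108 and 128 fragments. Of the 16404 shared regions of Smad3PA/PA cells, 15181 met a peak in all 4 of these lists. The interaction of line and treatment was tested with limma in the 6453 regions found in all 8 lists. None passed the adjusted threshold (0.0% called), with 26 regions having a more positive and 66 a more negative GDF9 difference in Smad3PA/PA at an unadjusted p under 0.05. With each library centred these counts were 209 and 326, and the smallest adjusted p was 0.44. The wide Smad2HA/+ regions took in several narrower ones. The 116950-bp region over Rnf19a had a centred log2 difference of -0.27 in Smad3PA/PA cells and 0.12 in Smad2HA/+ cells, and the difference between the lines had an unadjusted p of 0.074. The difference between the lines at Fam110a was -0.85 (unadjusted p = 0.0019, adjusted p = 0.44). In the other direction it was 1.12 at Arl5b and Nsun6 (unadjusted p = 0.0019, adjusted p = 0.44) and 1.49 at Adgrl2 (unadjusted p = 0.0042, adjusted p = 0.48). These regions were picked for their GDF9 difference in the same Smad3PA/PA libraries. The sign and small p of the difference between lines thus follow in part from that choice. Against the direction of choice, the wide regions had -0.33 over Bora and Dis3 and 0.15 over Lars in Smad3PA/PA cells.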

How the data were processed

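CUT&RUN peak lists of 4 H3K27ac libraries were analysed. The authors aligned reads to mm10 with Bowtie2, multiplied coverage by 100000 divided by the number of E. coli fragments, and called peaks with SEACR at its defaults. The deposited total and maximum signal are this scaled coverage. The sources used here do not name the H3K27ac antibody or the control for peak calling. RNA signal is the authors' normalized count per gene, from STAR 2.7.11b, featureCounts 2.1.1 and DESeq2 1.48.2. In all 4 RNA libraries 100% of values under 200 reads lay within 0.05 of a whole multiple of the smallest value, taken as 1 read, and recovered totals were 10146695 and 10517816 reads with GDF9 and 8827825 and 11416005 with vehicle. Columns with the authors' comparisons hold fold changes and p-values and were not used.

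Regions with a peak in all 4 lists were compared on log2 signal by moderated linear models with an intensity trend and no covariates (limma 3.58.1 in R 4.3.3), with Benjamini-Hochberg adjustment over all regions and a threshold of 0.05. RNA was tested on log2(value + 1) where the mean value reached 10, and called beyond 0.18 on the log2 scale. On the recovered reads edgeR 4.0.16 served as an alternative. Library values were tested by exact permutation (scipy 1.17.1). Start sites came from GENCODE vM21 on GRCm38, promoters from RefSeq. Tests were checked on simulated data. Intervals treat a maximum as a single count and cover counting error only.

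Named regions are, in each direction, up to 10 called regions whose groups do not overlap, filled by the smallest unadjusted p where fewer were called (here all 10), the 5 highest and 5 widest, and those within 3 kb of start sites of genes in 18 lists and of 23 genes the study names. Of several regions at a gene, the one with the highest mean total was used. Some regions that this rule names are not reported here. The members, lists and tests were chosen with earlier results of these data known. Printing 250 bases of promoter, where 30 had been planned, and the 4 genes shown were chosen after seeing values. Alternatives tried were another scaling, peak threshold, overlap, filter or pseudocount, a replicate block and leaving out each library. Centring combined with leaving out a library was added after seeing the data.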

Additional observations from a re-analysis of the deposited data

How the results depend on the processing

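For total signal, 0 regions were called on the deposited scale, with each library centred, at the stricter threshold (peaks with a maximum above the median of their list), at 50% mutual overlap and without any 1 library (0 to 0). Without the trend 1 region was called. Centring with 1 library left out, chosen after seeing the data, called 0 to 14 regions, all lower: 14 without GDF9 replicate 1, 9 without GDF9 replicate 2 and 0 without a vehicle replicate. Only 1 region, over Rnf19a and Spag1, was among both the 14 and the 9, and 18 of the 22 regions in either lay in gene bodies. The cause was not tested. For covered width, 1 region was called in several settings, again lower: with centring (chosen after seeing the data), where leaving out a library gave 1 to 1, and without either vehicle replicate, a range of 0 to 1 over the 4 libraries. That called with centring lay at chr9:24541658-24542402, nearest Dpy19l2. The difference between lines stayed at 0 (0 to 0 without a library). Shared regions numbered 7049 at the stricter threshold, which has fewer peaks, and 17888 to 18125 without 1 library, where fewer lists must agree.

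Across regions, deviations of same-numbered libraries correlated at 0.007 for total signal, -0.012 for maximum and 0.004 for width, so single regions gave no sign of pairing. This check cannot see a shift shared by whole libraries. The library median of log2 total signal was higher in replicate 2 than in replicate 1 with GDF9 (15.07 against 14.42) and with vehicle (15.08 against 14.59). The labels do not say whether same-numbered libraries are paired. The block is given once: the replicate block called 4 regions lower for total signal (Fam110a, Rras2, Rnf19a and Glyr1), and 0 with centring (smallest adjusted p = 0.11). It called 1 region lower for width, also with centring, and 3 lower for maximum signal with centring. In RNA the replicate block called 535 genes, against 396 without it.

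The library difference in total signal of -0.09 became 0.012 for maximum signal and lay between -0.42 and 0.23 without 1 library, so its direction depended on single libraries. The difference in median width of -193.5 bp was -59.25 bp without vehicle replicate 2 and -327.75 bp without vehicle replicate 1. RNA calls were 122 without the filter on low values, 406 with edgeR, and 215 to 583 without 1 library, 215 without vehicle replicate 1. At PA regions a stricter threshold, which left 64 of 131, moved the median H3K27ac difference to -0.071. Of 194 named regions, centring changed the sign of 42 and leaving out 1 library that of 51 to 83. Depth limits single peaks, since the median maximum was 12 or 13 fragments.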
